A study of Mus musculus with 4 samples.

Results

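The genes described are 6 mouse receptor tyrosine kinases that have been studied in epithelial-mesenchymal transition (EMT), the change of epithelial cells to a mobile, mesenchymal form: Axl, Met, Mst1r, Pdgfra, Pdgfrb and Igf1r. They were taken by name, not ranked by a measured value, although earlier results of these data were known. They are 6 of 21887 protein-coding genes in the RefSeq annotation of mm10. Every Slug or Snail peak was collected that had at least 1 bp in the gene or within 50 kb of either end. This gave 19 of 41612 Slug peaks and 25 of 28375 Snail peaks. Slug (gene Snai2) was mapped by ChIP-seq, the sequencing of DNA that comes down with a protein, in the epithelial line pBl.1G with high Slug expression. Snail (gene Snai1) was mapped in the mesenchymal line pBl.3G with high Snail expression. Both are breast cancer lines from MMTV-PyMT mice, a model in which polyoma virus middle T antigen is expressed from a mammary tumour virus promoter, and both were untreated. Slug was pulled down with a rabbit monoclonal anti-Slug antibody, whereas the one used in pBl.3G cells is labelled as anti-SNAIL + SLUG. There was 1 library for each factor, so factor, antibody and cell line cannot be told apart, and no value below has a replicate. The 2 input DNA libraries, 1 from each line, were not analysed here, and the lines' identity could not be checked against marker genes because no expression values were used.

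Receptor tyrosine kinases span the cell membrane, bind a growth factor outside the cell and phosphorylate tyrosines inside it, where adaptor proteins dock and pass the signal on. Met is the receptor of hepatocyte growth factor (Hgf), also called scatter factor because it makes epithelial cells part from each other, and Mst1r (Ron) is its nearest relative and binds the Hgf-like protein Mst1. Axl belongs to the Tyro3, Axl and Mertk family and binds Gas6. Pdgfra and Pdgfrb bind platelet-derived growth factors and are typical of mesenchymal cells. Igf1r binds the insulin-like growth factors Igf1 and Igf2. Slug and Snail are zinc finger proteins that bind E-boxes, short motifs of the form CANNTG, with CAGGTG as the classic site, and they are best known as repressors of epithelial genes.

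The promoters show where the mapped Snail sites did and did not meet these genes, so the RefSeq promoter of each receptor for which one was given is printed here (GRCm38.p6, the assembly of mm10). Each runs 5′ to 3′ on the gene's strand from 250 bases before the start of transcription to 50 bases after it, and capitals mark every CANNTG. The promoters of Met (chr6:17463707-17464006, plus strand), Axl (chr7:25788684-25788983, minus strand) and Igf1r (chr7:67952007-67952306, plus strand) lay under a Snail peak over all 300 bases. Those of Pdgfra (chr5:75152001-75152300, plus strand) and Mst1r (chr9:107906639-107906938, plus strand, the outer of its 2 promoters) lay under no peak of either factor.
Met: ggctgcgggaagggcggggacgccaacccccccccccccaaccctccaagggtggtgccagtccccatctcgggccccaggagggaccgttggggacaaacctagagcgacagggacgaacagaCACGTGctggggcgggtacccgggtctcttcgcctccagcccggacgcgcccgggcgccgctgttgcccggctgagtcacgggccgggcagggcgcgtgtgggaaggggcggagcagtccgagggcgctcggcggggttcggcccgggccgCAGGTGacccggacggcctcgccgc
Axl: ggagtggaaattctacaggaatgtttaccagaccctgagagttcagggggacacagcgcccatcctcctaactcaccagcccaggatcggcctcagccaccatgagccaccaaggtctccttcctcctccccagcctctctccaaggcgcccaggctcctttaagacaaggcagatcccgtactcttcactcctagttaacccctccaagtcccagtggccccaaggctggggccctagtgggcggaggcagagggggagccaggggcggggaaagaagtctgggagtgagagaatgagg
Igf1r: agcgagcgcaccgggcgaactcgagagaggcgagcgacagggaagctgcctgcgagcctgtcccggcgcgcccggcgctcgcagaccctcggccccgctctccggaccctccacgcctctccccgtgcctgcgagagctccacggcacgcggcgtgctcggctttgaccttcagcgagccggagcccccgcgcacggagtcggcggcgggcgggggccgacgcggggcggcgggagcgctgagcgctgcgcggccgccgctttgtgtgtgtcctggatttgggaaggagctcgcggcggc
Pdgfra: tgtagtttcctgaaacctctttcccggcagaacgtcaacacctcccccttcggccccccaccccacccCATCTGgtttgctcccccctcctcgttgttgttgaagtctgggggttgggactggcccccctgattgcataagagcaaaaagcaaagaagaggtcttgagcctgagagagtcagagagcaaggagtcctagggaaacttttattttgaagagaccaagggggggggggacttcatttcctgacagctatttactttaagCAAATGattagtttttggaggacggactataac
Mst1r: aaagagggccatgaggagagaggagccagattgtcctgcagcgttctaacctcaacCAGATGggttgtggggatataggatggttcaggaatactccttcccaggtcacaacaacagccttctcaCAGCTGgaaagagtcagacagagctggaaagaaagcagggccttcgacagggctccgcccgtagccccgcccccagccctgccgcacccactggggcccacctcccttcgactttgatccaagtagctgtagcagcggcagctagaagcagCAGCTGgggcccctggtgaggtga

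Among these 5 promoters the Met promoter was the only one with CAGGTG. It read so on the gene's strand, 26 bases into the transcript at chr6:17463982-17463987, and a second E-box, CACGTG, stood 126 bases before the start. CAGGTG or its reverse complement CACCTG was present in 19.7% of 21263 promoters of protein-coding genes, and any CANNTG, which includes CAGGTG and reads as CANNTG on both strands, in 69.0%. Axl and Igf1r, although under Snail peaks, held no CANNTG in these 300 bases. Pdgfra held CATCTG and CAAATG, and Mst1r held CAGATG once and CAGCTG at 2 places, with no peak over either promoter. Across all promoters, CAGGTG or CACCTG stood in 39.4% of the 845 under a Slug peak and in 16.7% of the 10472 under a Snail peak. The median GC content was 60.3% under Slug peaks, 62.3% under Snail peaks and 56.3% over all promoters, against 75.7% for Met, 60.3% for Axl and 76.0% for Igf1r. A motif match describes the letters of these windows and does not locate the bound site within a peak.

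In the windows as a whole, Slug peaks lay in or near 5 of the 6 receptors, against a background of 83.6% of protein-coding genes, and Snail peaks in or near all 6, against 78.3%. Peaks of both factors stood in 5 windows (71.8% of protein-coding genes). Slug peaks overlapped the gene itself in 3 receptors, Met, Pdgfra and Igf1r (37.2% of protein-coding genes), and Snail peaks in 4, the same 3 and Axl (58.7%). At promoters the counts were 0 of 5 for Slug (4.54%) and 3 of 5 for Snail (51.1%). Within 1 kb of either gene end they were 2 of 6 for Slug, Axl and Pdgfrb (13.0%), and 3 of 6 for Snail, Axl, Met and Igf1r (51.3%). With 6 genes these counts do not set the receptors apart from other genes, and the description turns on how the peaks were arranged in each.

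**Figure D1:**
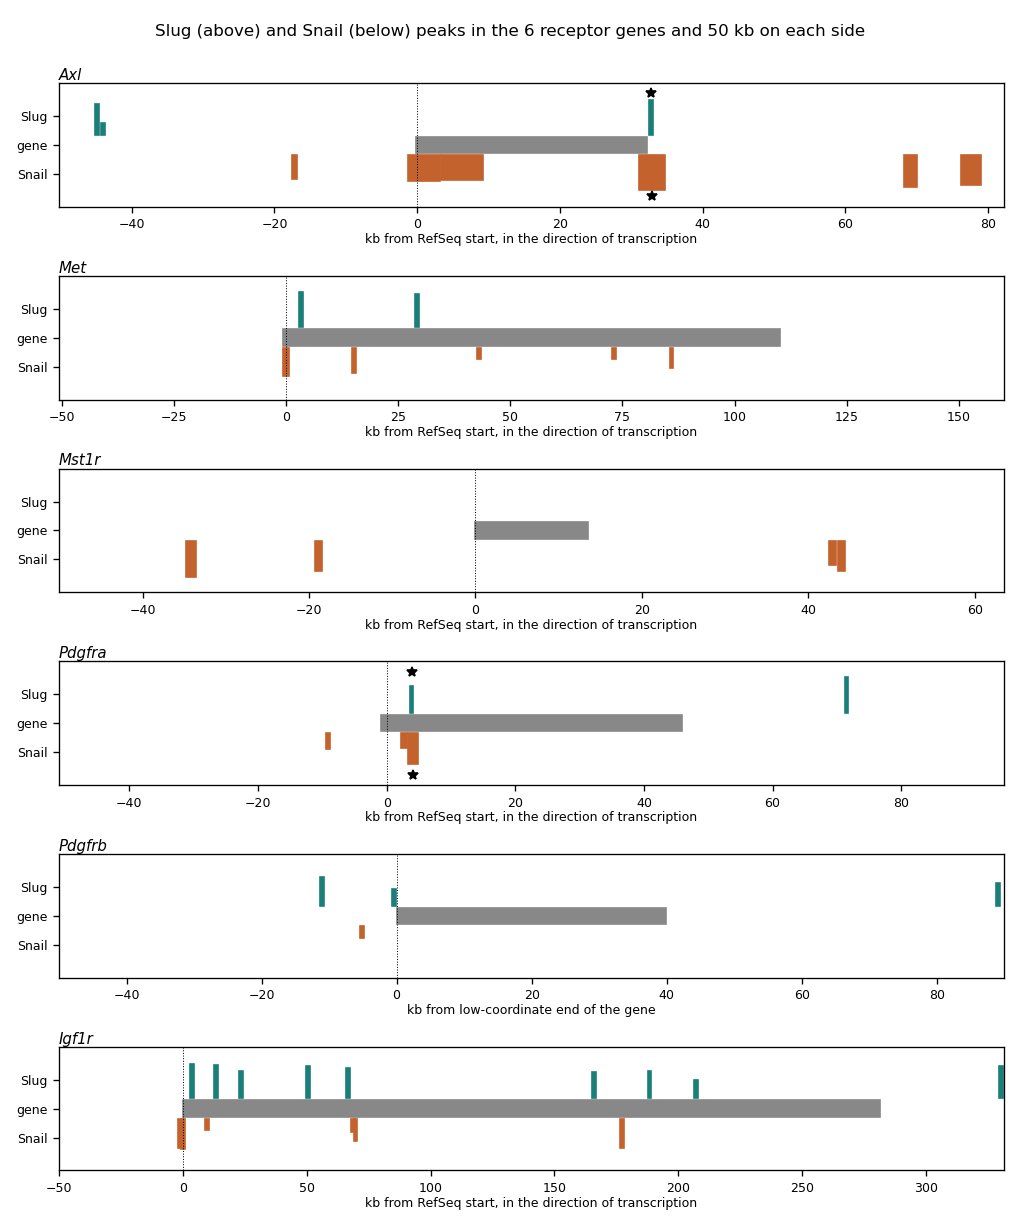
Peaks in each receptor gene and 50 kb on each side, with Slug peaks above the grey gene bar and Snail peaks below it, along the distance in kb from the RefSeq start (for Pdgfrb from the low-coordinate end). The height of a peak grows with the share of its own list that scored lower, very narrow peaks are drawn at a minimum width so that they can be seen, and stars mark the overlapping pairs near Axl and in Pdgfra. Snail peaks cover the start of Axl, Met and Igf1r, and no peak touches Mst1r.

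Igf1r, the longest gene at 281 kb, had 9 Slug and 6 Snail peaks, and 96.0% of protein-coding genes had fewer Slug peaks. Per 100 kb of window this was 2.36 Slug peaks, close to the 2.27 of Axl and the 2.14 of Pdgfrb, and 1.57 Snail peaks. The medians over protein-coding genes were 1.81 Slug peaks (quartiles 0.863 and 2.95) and 1.95 Snail peaks (quartiles 0.612 and 3.98) per 100 kb. The Slug densities of Pdgfra and Met were lower, at 1.36 and 0.950, and Mst1r had none. Axl had the highest Snail density of the 6, 4.53 per 100 kb, above the upper quartile of all genes, followed by Mst1r with 3.52, Met with 2.37 and Pdgfra with 2.04. Pdgfrb had the lowest, 0.715. The 6 Snail peaks of the Axl window include peaks at or inside its neighbours Ccdc97, Hnrnpul1 and Cyp2s1. Merging peaks up to 500 bp apart left 5 of them, and the quartiles were not recomputed for merged peaks. Apart from the Snail density of Axl and the missing Slug peaks of Mst1r, all values were within the quartiles of all protein-coding genes.

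**Figure D2:**
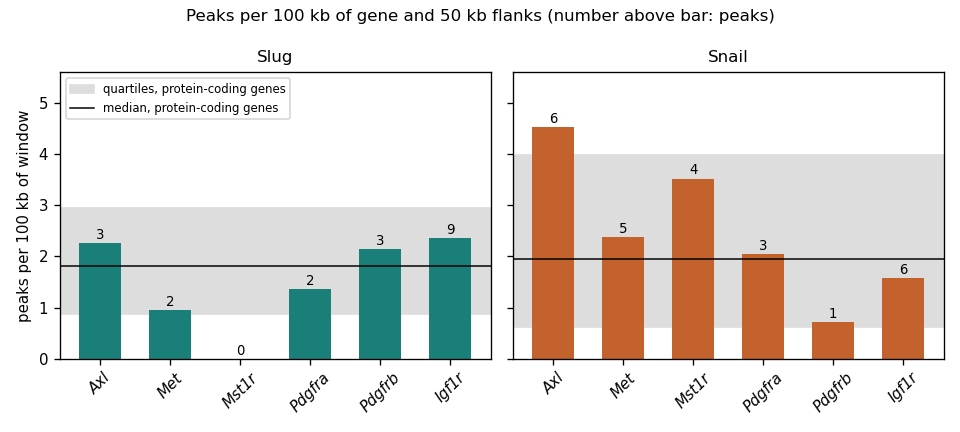
Peaks per 100 kb of gene plus flanks for the 6 receptors, Slug on the left and Snail on the right, with the number of peaks above each bar. The line and the grey band give the median and quartiles over protein-coding genes, 1.81 (0.863 to 2.95) for Slug and 1.95 (0.612 to 3.98) for Snail, and only the Snail bar of Axl rises above the band. That bar includes Snail peaks at or inside neighbouring genes, and its peaks are not merged.

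Each peak carries a score from the authors' peak caller, whose scale the files do not state, and a score is used here only against the other peaks of its own list. The lowest score in both lists was 50, and the medians were 81.1 for Slug and 151 for Snail. The 19 Slug peaks scored between 51.4 and 429 with a median of 142, and 15 of them were above the median of the Slug list. The 25 Snail peaks scored between 50.5 and 1454 with a median of 182, and 15 were above the median of the Snail list. Their widths ran from 158 to 612 bp for Slug (median 257 bp, against 206 bp in the whole list) and from 342 to 5845 bp for Snail (median 891 bp, against 722 bp).

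**Figure D3:**
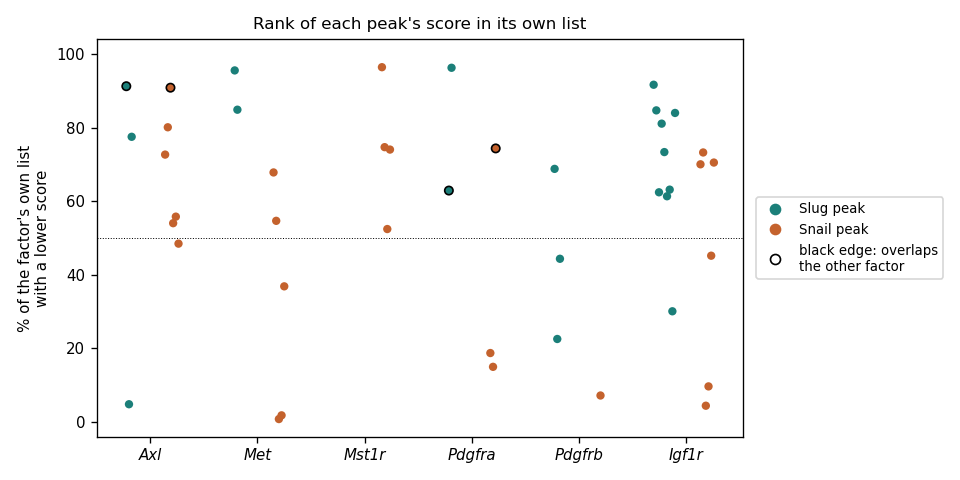
Rank of each peak's score, as the percentage of its factor's own list that scored lower, with Slug left and Snail right for each receptor. Black edges mark peaks that overlap a peak of the other factor and the dotted line is the middle of the list. The highest-ranking Slug peaks are those beyond Pdgfra (96.3%) and in Met (95.6%), and the highest-ranking Snail peak is in the window of Mst1r (96.4%), where it lies at another gene.

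Met (chr6:17463349-17573980) had 2 Slug and 5 Snail peaks, all of them overlapping the gene and none overlapping a peak of the other factor. The first Slug peak, chr6:17467139-17467475, began 3.18 kb downstream of the RefSeq start. It scored 399, more than 95.6% of the Slug list. The second, chr6:17492962-17493438, lay 29.0 kb downstream with a score of 212 (84.9% of the list lower). Met thus held Slug peaks from the upper part of the Slug list, away from its promoter. The Snail peak over the promoter, chr6:17463269-17464648, was 1380 bp wide, had its midpoint 0.001 kb from the start and scored 379, more than 67.8% of the Snail list. Its gap to the first Slug peak was 2.49 kb. The other Snail peaks were 14.8, 42.8, 72.9 and 85.6 kb downstream of the start, with scores of 182, 50.5, 51.3 and 99.6. Those with 50.5 and 51.3 stood at the edge of acceptance, and with a lowest score of 100 only 2 Snail peaks of Met were left. The nearest end of another protein-coding gene was at least 86.8 kb from each of these 7 peaks.

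Mst1r (chr9:107906858-107920383), the relative of Met, had no peak of either factor in the gene or within 10 kb. By the same rule 44.9% of protein-coding genes had peaks of both factors, 11.5% of Slug alone and 22.1% of Snail alone. The rest, like Mst1r, had neither, so this absence does not set Mst1r apart. Its window held no Slug peak and 4 Snail peaks, a combination found in 6.50% of protein-coding genes. Every Snail peak there lay at an end of another gene. The strongest, chr9:107872092-107873311 with a score of 1454 (96.4% of the Snail list lower), covered a start of Rbm6, which encodes an RNA-binding protein, 33.5 kb below Mst1r. A second, with a score of 551, covered a start of Mon1a, a gene of vesicle traffic, at 18.4 kb. The remaining pair, with scores of 166 and 534, lay 29.0 and 30.0 kb above Mst1r, the weaker over an end of Camkv and the stronger over a start of Traip, which encodes a ubiquitin ligase. They were 155 bp apart. The nearest Slug peak to Mst1r was 98.0 kb away and scored 73.4. A peak list shows only peaks that passed the caller's limit, so this is no measure of how much Slug was bound.

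Axl (chr7:25756500-25788924, minus strand) had 3 Slug and 6 Snail peaks in its window. A pair of very wide Snail peaks lay at its start. The first, chr7:25785473-25790027, was 4555 bp wide, covered the promoter and scored 192. The second, chr7:25779507-25785351, was 5845 bp wide, scored 177 and lay inside the gene, 121 bp from the first. They spanned 10.5 kb together and covered 28.7% of the gene. By width they ranked 87 and 32 among 28375 Snail peaks, while their scores were near the middle of that list (55.8% and 54.0% lower). Of the 145 Snail peaks of 4 kb or more, whose median score was 359, 20.7% scored below the higher of the pair and 16.6% below the lower. No other adjoining pair of Snail peaks had both members at least 4 kb wide with a gap of 500 bp or less. Among the 8543 Snail peaks over promoters of protein-coding genes, 99.5% were narrower than the Axl promoter peak and 12.4% scored lower. The median promoter peak was 1068 bp wide and scored 693. The Snail peak at the Met promoter was by the same measures wider than 72.6% and scored above 25.3%, and that at the Igf1r promoter was wider than 41.8% and scored above 35.4%. All 3 receptor promoters thus carried Snail peaks that scored below the median of promoter peaks.

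No Slug peak lay in Axl or at its start. The only Slug peak close to the gene, chr7:25755655-25756266, stood 0.234 kb beyond the 3′ end. At 612 bp it was wider than 98.8% of Slug peaks, and it scored 291 (91.3% lower). All of its 612 bp lay inside the Snail peak chr7:25754040-25757640, which was 3601 bp wide and with 1077 had the highest Snail score at a receptor gene itself (90.9% lower). This shared site also belonged to the neighbouring gene Hnrnpul1, which encodes an RNA-binding nuclear protein. The Snail peak covered the Hnrnpul1 promoter (chr7:25754710-25755009, minus strand) in full, and the Slug peak lay within the annotated span of Hnrnpul1, 0.002 kb from that gene's high-coordinate end and 0.896 kb upstream of the start that this promoter marks. The site can be assigned by position to the 3′ end of Axl or to the start of Hnrnpul1, and these cannot be told apart. Further out, Slug peaks with scores of 51.4 and 162 lay 43.8 and 44.6 kb upstream of Axl, 16.2 and 17.0 kb from the gene Cyp2s1. Snail peaks with scores of 498 and 698 lay 44.0 and 36.0 kb beyond the 3′ end, each over an end of Ccdc97. A Snail peak with a score of 143 lay 16.7 kb upstream, inside Cyp2s1.

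**Figure D4:**
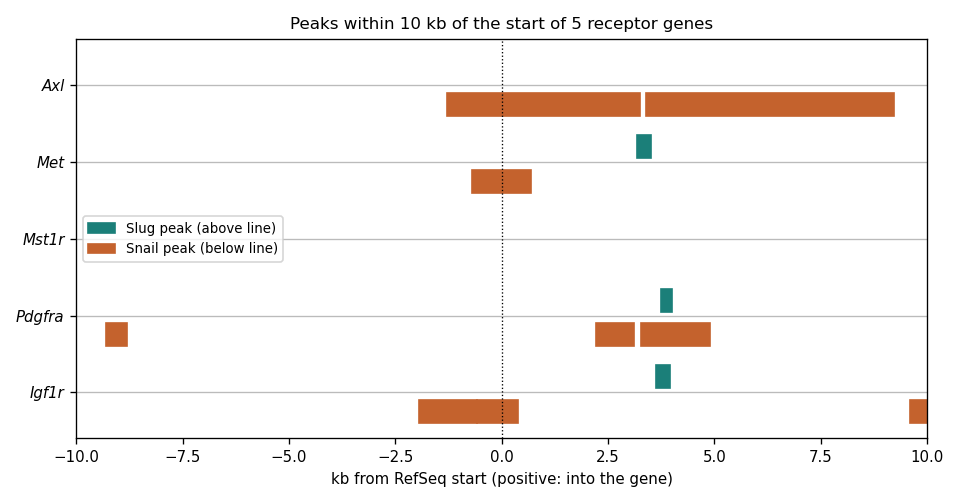
Peaks within 10 kb of the RefSeq start of the 5 receptors with a known start, Slug above each line and Snail below, with positive distances pointing into the gene. Snail peaks cover the start of Axl, Met and Igf1r, and Slug peaks begin 3.18 kb (Met), 3.76 kb (Pdgfra) and 3.62 kb (Igf1r) inside the gene.

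The genes of the PDGF receptors differed from each other. Pdgfra (chr5:75151322-75198206) had 2 Slug and 3 Snail peaks, and the only shared site that lay inside a receptor gene. The Slug peak there, chr5:75156006-75156262, was 257 bp wide, began 3.76 kb downstream of the start and scored 106 (62.9% lower). It lay wholly inside the Snail peak chr5:75155532-75157148, which was 1617 bp wide, began 3.28 kb downstream and scored 542 (74.4% lower). A second Snail peak with a score of 63.1 lay 174 bp before the first, and another with 67.5 lay 7.89 kb outside the gene. The highest Slug score in any of the 6 windows belonged to chr5:75223611-75223883, 25.4 kb beyond the 3′ end of Pdgfra, with 429 (96.3% lower). The nearest Snail peak was 66.5 kb away and the nearest end of another protein-coding gene 146 kb.

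Pdgfrb (chr18:61045127-61085067) had no peak inside the gene. Its 3 Slug peaks lay 0.248 and 10.8 kb beyond the low-coordinate end and 49.1 kb beyond the high-coordinate end, with scores of 57.8, 124 and 73.8. The first of these also covered an end of the predicted gene Gm52351, the second lay inside the homeobox gene Cdx1, and the third lay inside Hmgxb3. Its single Snail peak, chr18:61039780-61040230, was 4.90 kb beyond the low-coordinate end with a score of 55.6, above 7.20% of the Snail list, and lay inside Gm52351. With a lowest score of 100, Pdgfrb kept 1 Slug peak and no Snail peak. No promoter was used for this gene.

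Igf1r (chr7:67952257-68233668) had the longest run of Slug peaks: 8 of its 9 lay inside the gene, at 3.62, 13.2, 23.5, 50.5, 66.5, 166, 188 and 207 kb from the start. Their scores in the same order were 297, 211, 105, 183, 142, 103, 107 and 61.7, so 7 of the 8 were above the median of the Slug list. The peak nearest to the start, chr7:67955879-67956214, had the highest of them, above 91.7% of the list. The ninth, with a score of 205, lay 48.7 kb beyond the gene, inside Fam169b. The Snail peaks were arranged differently. The promoter lay under chr7:67951674-67952651, 978 bp wide with a score of 513 (73.3% lower), and 4 bp away from it ended a second peak of 1368 bp with a score of 433. Inside the gene, Snail peaks lay 9.61, 68.3, 69.3 and 177 kb from the start, with scores of 53.2, 57.7, 127 and 444. None of the Slug and Snail peaks of Igf1r overlapped. The closest were the Slug peak at 66.5 kb and the Snail peak at 68.3 kb, with 1.54 kb between them. The Slug peak nearest to the promoter was 3.23 kb from the Snail peak there.

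Shared sites were thus 2 of 19 Slug peaks (10.5%, exact 95% interval 1.3 to 33.1) and 2 of 25 Snail peaks (8.0%, 0.984 to 26.0). These intervals cover counting error only, and neighbouring peaks are not independent. In the whole lists 12.1% of Slug and 16.6% of Snail peaks overlapped, so the receptors' shares were close to or below these and within counting error of them. Of the 6 receptors, 2 had a shared site in their window, against 35.0% of protein-coding genes counted by the Slug peak and 35.2% counted by the Snail peak. Both shared Slug peaks lay wholly inside a much wider Snail peak, so neither pair reached a reciprocal overlap of 50%.

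The Slug peaks just inside 50 kb were at 49.1 kb from Pdgfrb (score 73.8) and 48.7 kb from Igf1r (205), and those just outside were at 51.6 kb from Pdgfrb (51.4) and 53.4 kb from Pdgfra (312). For Snail the farthest peak inside was at 44.0 kb from Axl (498), and the nearest outside was at 51.2 kb from Pdgfrb (135).

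Other genes of these pathways were grouped by role and taken to have a peak when it lay in the gene or within 10 kb. By this rule 5 of the 6 receptors had peaks of each factor, all but Mst1r, against 56.4% of protein-coding genes for Slug and 66.9% for Snail. For peaks over a known promoter the shares of all protein-coding genes were 4.54% for Slug and 51.1% for Snail. The groups are described beside these shares without a test. Their peaks were not checked against neighbouring genes, so a peak outside a group gene may lie at the start of another gene. Gene length differs, with medians of 43.4 kb for the receptors and 17.2 kb for all protein-coding genes, and a longer gene has more room for a peak.

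Of 10 ligand genes, 8 lay near Slug and 8 near Snail peaks (median length 47.6 kb), and of the 9 with a known promoter 0 had a Slug peak over it and 6 a Snail peak. Igf1, a ligand of Igf1r, had the highest Slug score of the group, 600 inside the gene, and a highest Snail score of 110. Hgf, the ligand of Met, had 2 Slug peaks, the higher at 573, and no Snail peak. Mst1, the ligand of Mst1r, had a low Slug score, 53.6, and a Snail score of 909 at 0.559 kb from the gene. Pros1, which encodes protein S, had no Slug peak and a Snail peak with 723 at 7.10 kb. Igf2 had neither.

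Of the 7 receptors closest in kind, 6 lay near Slug and 3 near Snail peaks (median length 69.7 kb), and of the 4 with a known promoter 0 had a Slug peak over it and 1 a Snail peak. Kit and Flt3, which belong to the same kinase class as the PDGF receptors, had Slug scores of 1435 at 3.48 kb and 1183 at 4.85 kb from the gene and no Snail peak. Csf1r, the next such gene beyond Pdgfrb, also had Slug peaks alone. Slug peaks without a Snail peak were thus near 3 of these 7 genes, against 11.5% of all protein-coding genes, whose median length was only 17.2 kb. Insr, the insulin receptor and relative of Igf1r, had 7 Slug peaks that scored up to 326 and 3 Snail peaks, of which the strongest (1215) overlapped a Slug peak. Tyro3, a relative of Axl, had 3 Slug peaks of at most 86.4 and a Snail score of 1640 at 9.79 kb from the gene. Insrr had neither.

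Of 14 genes for proteins that bind the ligands or promote or inhibit their activation, 10 lay near Slug and all 14 near Snail peaks (median length 14.7 kb). Of the 11 with a known promoter, 3 had a Slug peak over it and 4 a Snail peak. Plau, whose product urokinase is a secreted protease, had a Slug score of 472 at 6.82 kb from the gene. Its highest Snail score, 818, belonged to a peak that overlapped an end of the gene. Igf2r, which takes up Igf2, had scores of up to 309 for Slug and 636 for Snail. Igfbp6, an Igf-binding protein, had no Slug peak and a Snail score of 1077 at 7.41 kb.

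Of 20 adaptors and proximal effectors, 16 lay near Slug and 19 near Snail peaks (median length 62.7 kb), and of the 18 with a known promoter 1 had a Slug peak over it and 17 a Snail peak. Cblb, which encodes a ubiquitin ligase of activated receptors, had a shared site with a Slug score of 3100, the highest value in the Slug list, and a Snail score of up to 1373. Grb2, the adaptor that links receptors to Ras, had a shared site with a Slug score of 904, and Snail scores up to 523. Shc1, an adaptor that also docks on the polyoma middle T protein, scored at most 52.8 in the Slug list and had 5 Snail peaks that scored up to 1891. Grb10 had neither.

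Of 41 other receptor tyrosine kinases, 37 lay near Slug peaks (90.2%) and 29 near Snail peaks (70.7%), with a median length of 73.4 kb. Of the 36 with a known promoter, 0 had a Slug peak over it and 17 a Snail peak. Flt1, a VEGF receptor, had 11 Slug peaks, the highest at 1568, and a Snail score of 519. Ror2, a Wnt receptor, had 9 Slug peaks, the highest at 1178, and a Snail score of 428. The Slug peaks with 1568 and 1178 overlapped Snail peaks. Erbb3 and Ddr2, a neuregulin and a collagen receptor, had the highest Snail scores, 1736 at 0.720 kb and 1320 at 2.52 kb from the gene, and Slug scores of 123 and 168. Slug peaks without a Snail peak were near 9 of the 41 genes, against 11.5% of all protein-coding genes, and the reverse held for 1, against 22.1%. All protein-coding genes have a median length of 17.2 kb, and no share matched for length was computed. Because 37 of the 41 had a Slug peak, few could have a Snail peak alone.

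**Figure D5:**
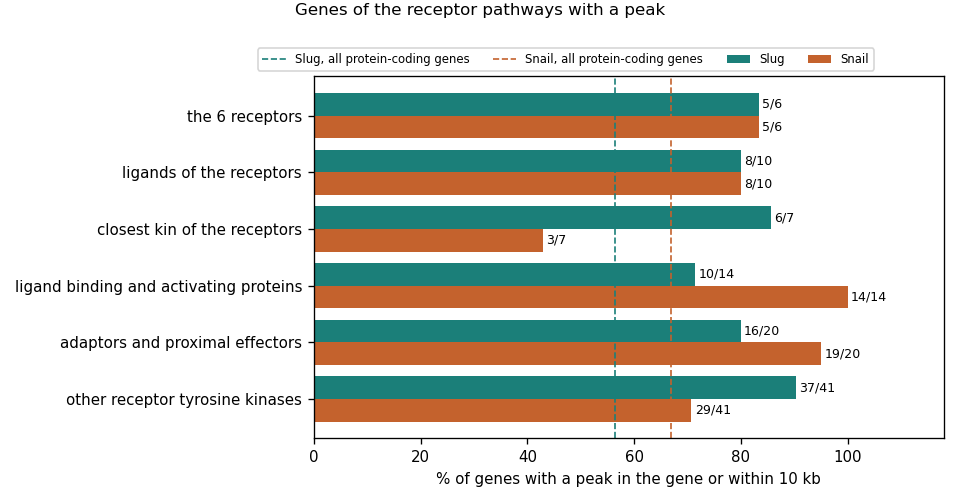
Percentage of genes with a peak in the gene or within 10 kb, for the 6 receptors and 5 groups of related genes, Slug above Snail, with the number of genes at each bar. Dashed lines give the shares of all protein-coding genes, 56.4% for Slug and 66.9% for Snail. Slug bars of all groups lie right of the Slug line, and the Snail bar of the closest kin (3 of 7) lies left of the Snail line.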

How the data were processed

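The 2 deposited peak lists were used, 1 for the Slug library of pBl.1G cells and 1 for the Snail library of pBl.3G cells, each called per sample. The submitters' processing notes name Bowtie, MACS 1.4.2 and mm10. The settings of MACS, and whether input DNA was its control, are not given in the sources. The deposited score is the value the authors' peak caller gave each peak. By the convention of MACS 1.4 it is a log-transformed p-value, but the files do not state its scale. Because such a value moves with library depth, it was ranked within its own list only, and Slug and Snail scores printed together do not compare strength. Sequencing depth is unknown, and no counts or signal were used. Fixation was with 1% formaldehyde for 10 min and DNA was sheared to 200 to 500 bp, per the labels' protocols. The wide Snail and narrow Slug peaks were taken as deposited.

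Positions were made 1-based. Gene spans, and 300-base promoters with strand for 17492 of 21887 protein-coding genes, came from RefSeq tables of GRCm38.p6. All 98 listed gene symbols were found. A promoter was given for 5 of the 6 receptors. Exons were not used. An overlap of 1 bp or more made peaks shared. Distances run from the nearer edge of a peak. No test was made, because there was 1 library per factor. The members and lists were chosen with earlier results of these data known. All 6 receptors were described, and of each group the genes with the 2 highest Slug and the 2 highest Snail scores. 1 gene that this rule names is not reported here. Genes without a peak of either factor, and Csf1r as neighbour of Pdgfrb, were named after their values were seen, as were neighbouring genes of the windows. The description of wide peaks at Axl, with its limit of 4 kb, was also chosen after seeing the data. Calculations used Python 3.11.15 with pandas 2.3.3, scipy 1.17.1, numpy 2.4.6 and, for plots, matplotlib 3.10.9. The overlap code was tested on simulated intervals. Alternatives were a lowest score of 100, equal list lengths, peak midpoints, windows of 10 and 100 kb, other definitions of overlap, and 5 kb from gene ends.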

Additional observations from a re-analysis of the deposited data

How the results depend on the processing

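With windows of 100 kb the receptors had 39 Slug and 43 Snail peaks, 4 of each shared, and with 10 kb they had 13 and 18, with 2 of each shared. No pair was shared (0 Slug and 0 Snail peaks) under a reciprocal overlap of 50%. Receptors with a peak within 1 kb of a gene end were 2 for Slug and 3 for Snail, and within 5 kb they were 5 and 5. The Slug count there was 1 with a lowest score of 100 and 1 with equal list lengths, because the Pdgfrb peak scored 57.8. All other alternatives tried for these 6 counts left them within 1.5 times, among them merging peaks of a list up to 500 bp apart, added after seeing the data, which turned 25 Snail peaks into 20. No paired analysis was possible because each factor has 1 library. Unknown depth limits any statement on missing peaks, and the score limit of 50 hides weaker ones. The Snail peaks of Met, Pdgfra, Pdgfrb and Igf1r numbered 2, 1, 0 and 4 with a lowest score of 100.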

Other observations

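In Met, Pdgfra and Igf1r a Slug peak was centred 3.35, 3.88 and 3.79 kb downstream of the RefSeq start. Over protein-coding genes with a promoter, 2.20% had a Slug peak centred 3 to 4 kb downstream, against these 3 of 5 receptors. For Snail it was 1.45%, against 0 of 5. From the low end of the annotated gene span, the near edges of the Slug peaks of Met, Pdgfra and Igf1r were 3.79, 4.68 and 3.62 kb away. The Pdgfra peak thus fell in the interval only by the RefSeq start used here, which lies inside the span. The interval was chosen after the positions were seen, so the count is a description and not a test. The Pdgfra peak was the only one of the 3 that overlapped a Snail peak.

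Over a promoter with a Snail and no Slug peak, a Slug peak elsewhere in the gene or within 50 kb was found for Axl, Met and Igf1r. The same held for 43.4% of protein-coding genes, so the 3 of 5 receptors do not stand apart in this.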
